A study of Homo sapiens with 24 samples.

Results

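GFAP, NES, SOX2, SOX9, FABP7, HES1, HES6, VIM, CD44 and PMP22 are 10 genes used to describe the astroglial or stem-like identity of glioma cells. They were taken by name, through the RefSeq transcript that the array design gives for each probe, from 24847 gene symbols that had a probe on the array. The 10 genes were read by 18 probes, of which 17 passed the filter on low signal, so that 9 of the 10 genes were tested. HES1 was the gene that did not pass.

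RNA came from U251, an established human glioblastoma cell line, and was hybridized to 1-colour Agilent microarrays in 6 groups of 4 independent biological replicates. Cells were exposed to the vehicle DMSO, to G-1 at its IC50 dose for these cells, or to G-1 1 µM, each for 24 h and for 72 h. G-1 is a synthetic agonist of GPER, a G protein-coupled receptor that binds estrogen. All 6 groups, controls included, carried the same background: cells were grown for 24 h, held for another 24 h in medium with charcoal-stripped serum to deprive them of steroids, and then exposed. The study has 1 cell line, so its replicates are cultures of that line and not different tumours. All 8 G-1 1 µM arrays lay on 1 of the 3 slides, which was scanned in a session of its own. The other 2 slides were shared by DMSO and G-1 IC50. A difference between G-1 1 µM and another treatment at 1 duration and a difference between sessions cannot be told apart by the design, while a constant offset between sessions drops out of the comparison of the 72 h change with the 24 h change. Spots well above background made up 41.1% to 44.5% of an array in the first session and 38.0% to 40.7% in the second, and replicates of a group correlated at 0.990 to 0.996 over all tested probes.

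Astrocytes and the radial glia they descend from are recognised by their intermediate filaments. Nestin (NES) and vimentin (VIM) are made by progenitors and immature glia, and glial fibrillary acidic protein (GFAP) is added in astrocytes. SOX2 and SOX9 are HMG-box transcription factors that hold neural stem cells and glial precursors in their state, and FABP7 is the brain lipid-binding protein of radial glia, which carries long-chain fatty acids. HES1 is a repressor switched on by Notch signalling, and HES6 is a relative that opposes HES1. CD44, the hyaluronan receptor, marks mesenchymal glioma cells, and PMP22 is a membrane protein best known from peripheral myelin. In this disease the same genes are used to sort tumour cells along an axis from stem-like to differentiated or mesenchymal.

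A level is given here as the log2 signal of the brightest probe of the gene minus the 75th percentile of its array, and a change as a difference of such levels. Because probes bind with different strength, levels are compared between groups for 1 gene and not between genes. A gene rose or fell when limma's Benjamini-Hochberg adjusted p over all 22970 tested probes was below 0.05. In bulk RNA, fewer cells making a transcript and less of it per cell cannot be told apart. The line was checked against 18 other astrocyte markers. Of these, 10 were well above background on all 24 arrays, S100B, a calcium-binding protein of astrocytes, among them, whereas the defining markers ALDH1L1, AQP4, SLC1A2, GJB6 and KCNJ10 were not well above background on all 4 arrays of any group.

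GFAP had the largest change of the 9 tested genes. Its levels were 6.35, 5.98, 7.14 and 7.35 in DMSO 24 h and 6.47, 6.70, 6.67 and 7.08 in DMSO 72 h. With G-1 IC50 they were 6.62, 6.90, 7.76 and 7.28 at 24 h and 6.63, 6.93, 6.99 and 7.12 at 72 h. With G-1 1 µM they were 6.96, 6.81, 7.52 and 8.07 at 24 h and 3.65, 3.56, 4.45 and 4.41 at 72 h. The 4 arrays of G-1 1 µM at 72 h thus lay below all 20 others, and the arrays of the remaining groups overlapped. Against DMSO 72 h, GFAP fell 6.56-fold, a log2 change of -2.71 with SE 0.31 and a 95% interval of -3.36 to -2.06 (limma, adjusted p = 2.55e-07). A second GFAP probe, for transcript NM_001131019, changed by -2.82 and the remaining one by -3.34 on the log2 scale, so the fall did not rest on 1 probe. Against G-1 IC50 at 72 h the log2 change was -2.90 (SE 0.31, limma adjusted p = 1.17e-07).

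At 24 h the GFAP mean at 1 µM lay above that of DMSO, with overlapping arrays. Against DMSO 24 h, the log2 change at 1 µM was 0.63 (SE 0.31), which did not pass the test (limma adjusted p = 0.131). The arrays of these 2 groups deviated together by replicate number, and with the replicate number as a block the same change passed (limma adjusted p = 0.0114). Over the alternatives, the brightest probe passed in 2 of 20. The other GFAP probes gave smaller differences, 0.34 and 0.05 on the log2 scale, which passed in 1 and 0 of 19 alternatives. The change at 72 h differed from that at 24 h by -3.35 (SE 0.44, limma adjusted p = 1.18e-05), a comparison that holds no constant offset between scanning sessions.

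**Figure D1:**
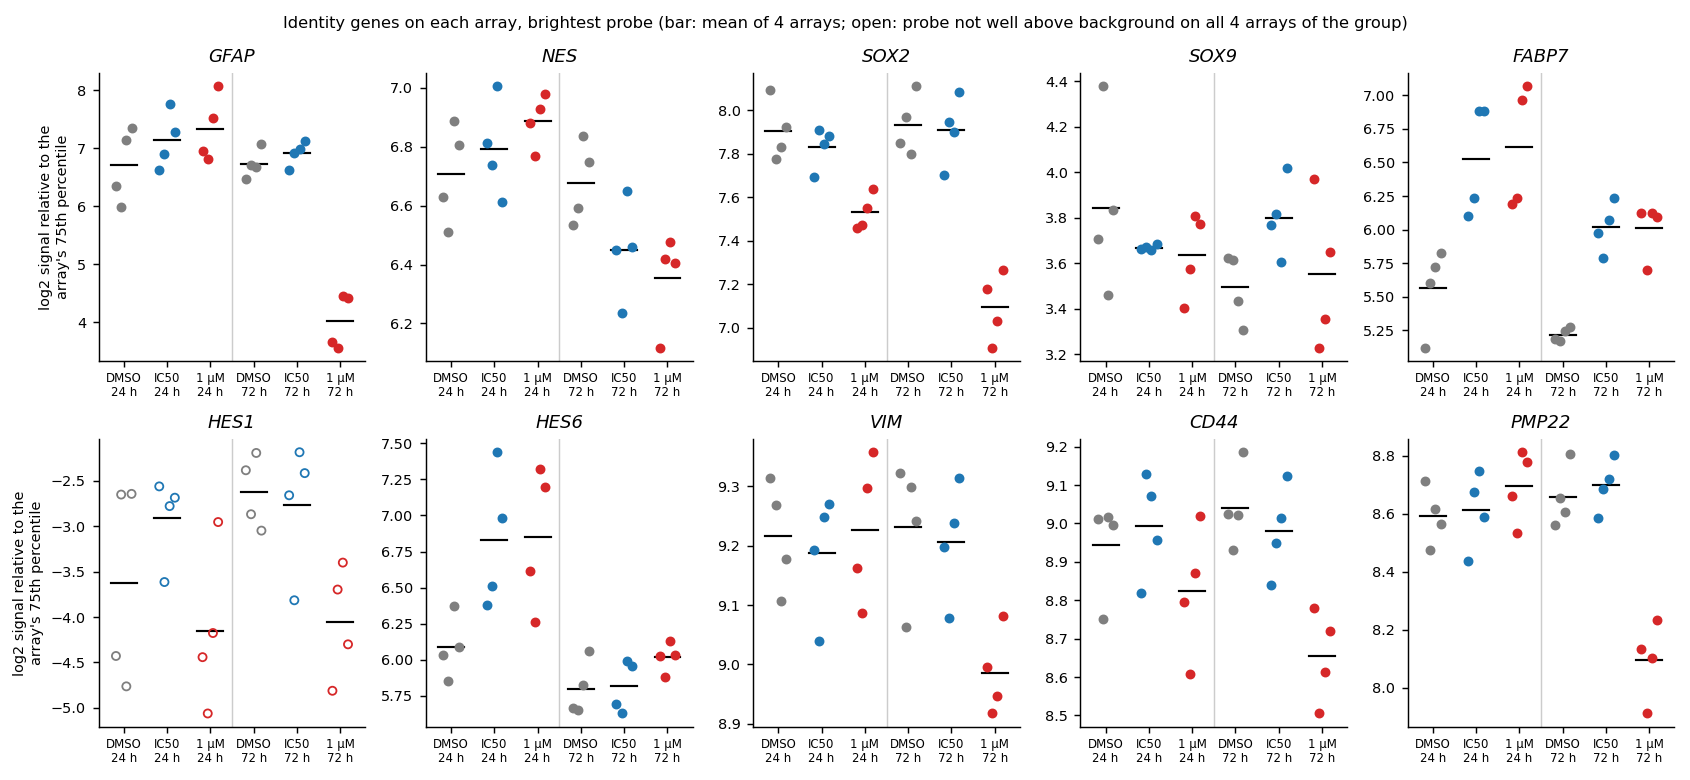
Level of each of the 10 genes on every array, as log2 signal of the brightest probe minus the 75th percentile of the array, with 4 arrays (points) and their mean (bar) in each of 6 groups. The panels have their own vertical scales. GFAP is set apart at G-1 1 µM 72 h, where its 4 arrays lie between 3.56 and 4.45, and FABP7 lies above its DMSO arrays at either dose. HES1 was not well above background on all 4 arrays of any group.

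The other 2 cytoskeletal members moved far less. NES levels were 6.53, 6.59, 6.84 and 6.75 in DMSO 72 h and 6.12, 6.42, 6.48 and 6.41 in G-1 1 µM 72 h, without overlap. NES fell by a log2 change of -0.32 (SE 0.11, limma adjusted p = 0.0122), and its second probe changed by -0.58 (SE 0.14, limma adjusted p = 0.00114). The NES call by the brightest probe was lost without replicate 1 of G-1 1 µM 72 h (limma adjusted p = 0.0575) and with another background correction (limma adjusted p = 0.110). At 24 h NES was 0.18 log2 above DMSO at 1 µM, which did not pass the test, and the change at 72 h differed from it by -0.50 (SE 0.15, limma adjusted p = 0.0151), a difference lost with that background correction (limma adjusted p = 0.146) and without the filter on dim probes (limma adjusted p = 0.0621). VIM levels were 9.32, 9.06, 9.30 and 9.24 in DMSO 72 h and 8.99, 8.92, 8.95 and 9.08 in G-1 1 µM 72 h. These groups overlapped on 1 pair of arrays, and VIM fell by -0.25 log2 (SE 0.08, limma adjusted p = 0.00864), a call lost with quantile normalization (limma adjusted p = 0.0685). Its 6 group means spanned 0.25 log2 in all, against 3.32 for GFAP.

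SOX2 was lower at the higher dose at either duration. Its levels were 8.09, 7.78, 7.83 and 7.92 in DMSO 24 h and 7.46, 7.47, 7.55 and 7.64 in G-1 1 µM 24 h. They were 7.85, 7.97, 7.80 and 8.11 in DMSO 72 h and 7.18, 6.91, 7.03 and 7.27 in G-1 1 µM 72 h. In neither pair did the groups overlap. SOX2 fell 1.30-fold at 24 h, a log2 change of -0.38 (SE 0.09, limma adjusted p = 0.00597), and 1.78-fold at 72 h, a log2 change of -0.83 (SE 0.09, limma adjusted p = 2.03e-07). The 72 h change was larger by -0.46 (SE 0.13, limma adjusted p = 0.0128), a difference lost without the filter on dim probes (limma adjusted p = 0.0584). With G-1 IC50, SOX2 stayed near DMSO, at -0.07 log2 with a 95% interval of -0.27 to 0.12 at 24 h and -0.02 with an interval of -0.22 to 0.17 at 72 h. By the brightest probes, SOX2 was the 1 tested member to differ between the doses at 24 h, by -0.30 (SE 0.09, limma adjusted p = 0.0230). Without replicate 1 or 2 of G-1 1 µM 24 h, or replicate 2 or 4 of G-1 IC50 24 h, that difference no longer passed (limma adjusted p between 0.0595 and 0.0639).

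SOX9, its partner in glial precursors, passed no test. Its group means lay between 3.50 and 3.85, and neighbouring groups in that order overlapped throughout. At 72 h the change at 1 µM was 0.06 log2, with DMSO arrays between 3.31 and 3.62 and G-1 1 µM arrays between 3.23 and 3.97.

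FABP7 was higher than DMSO in each of the 4 G-1 groups. Its levels were 5.12, 5.60, 5.72 and 5.82 in DMSO 24 h, 6.10, 6.23, 6.88 and 6.88 in G-1 IC50 24 h and 6.19, 6.24, 6.96 and 7.07 in G-1 1 µM 24 h. At 72 h they were 5.18, 5.17, 5.24 and 5.27 in DMSO, 5.98, 5.79, 6.07 and 6.23 in G-1 IC50 and 6.13, 5.70, 6.13 and 6.10 in G-1 1 µM. No array of any G-1 group overlapped with the DMSO arrays of its duration. At 1 µM FABP7 rose 2.07-fold at 24 h, a log2 change of 1.05 (SE 0.21, limma adjusted p = 0.000987, or 0.0505 by the methods' t-test after Benjamini-Hochberg adjustment), and 1.73-fold at 72 h, a log2 change of 0.79 (SE 0.21, limma adjusted p = 0.00214). With G-1 IC50 the log2 changes were 0.96 (SE 0.21) at 24 h and 0.80 (SE 0.21) at 72 h, sizes close to those at 1 µM, but they did not pass after adjustment (limma adjusted p = 0.0677 and 0.0846). Without replicate 1 of G-1 IC50 24 h the 24 h change was 1.10 and passed (limma adjusted p = 0.0307). Most alternatives left the G-1 IC50 changes above the threshold. At 24 h FABP7 was under it in 6 of 21, with adjusted p up to 0.883. At 72 h it was under it in 6 of 21, with adjusted p up to 0.261. For each of these 4 pairs of groups the two-sided exact permutation p was 0.0286, which is the smallest that 4 arrays against 4 can give. The doses differed in FABP7 by 0.09 log2 at 24 h, with a 95% interval of -0.34 to 0.52, and by -0.00484 at 72 h, with an interval of -0.43 to 0.42. Since G-1 IC50 shared its slides with DMSO, the change could also be taken within a slide. At 24 h it was 1.00 log2 (2 G-1 against 3 DMSO arrays) and 0.89 (2 against 1). At 72 h it was 0.57 (1 against 2) and 0.88 (3 against 2). With so few arrays on a slide these values are descriptions and not tests.

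HES6 rose at 1 µM 24 h. Its levels were 6.03, 5.85, 6.37 and 6.09 in DMSO 24 h, 6.38, 6.51, 7.44 and 6.98 in G-1 IC50 24 h and 6.61, 6.26, 7.32 and 7.20 in G-1 1 µM 24 h. Arrays of G-1 IC50 lay just above those of DMSO, and those of G-1 1 µM overlapped with them on 1 array. At 1 µM HES6 rose 1.70-fold, a log2 change of 0.76 (SE 0.21, limma adjusted p = 0.0115), and its other 3 probes rose by 0.98, 1.43 and 1.31 log2. The call by the brightest probe was lost with the fit on only the arrays compared (just above the threshold). It was also lost by the methods' t-test after Benjamini-Hochberg adjustment (adjusted p = 0.101), which the methods do not name for pairs of groups. With G-1 IC50 the brightest probe differed by 0.74 log2 (SE 0.21, limma adjusted p = 0.387). Within the 2 slides it differed by 0.81 (2 G-1 against 3 DMSO arrays) and 0.83 (2 against 1). The other 3 probes differed by 0.63, 0.93 and 0.89 log2. At 72 h HES6 levels were 5.66, 5.65, 5.82 and 6.06 in DMSO and 6.02, 5.88, 6.13 and 6.04 in G-1 1 µM, which overlapped. The log2 change there was 0.22 (SE 0.21, limma adjusted p = 0.379) by the brightest probe, while 2 of the other 3 probes differed by 0.69 (limma adjusted p = 0.0199) and 0.66 (limma adjusted p = 0.0396). The first of these stayed past the threshold in 17 of 19 alternatives and was lost without replicate 2 or 3 of G-1 1 µM 72 h (limma adjusted p up to 0.0546). The second stayed past it in 11 of 19 and was lost without replicate 1 or 2 of DMSO 72 h or replicate 2, 3 or 4 of G-1 1 µM 72 h (limma adjusted p up to 0.103). The difference of the 72 h from the 24 h change in HES6, -0.54 with SE 0.30, did not pass the test (limma adjusted p = 0.182).

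FABP7 and HES6 were the 2 members that rose at 24 h, SOX2 was the one that fell, and HES1 is the classical Notch target, so the sequence before their start sites is shown. RefSeq (GRCh38.p14) windows matched 8 of the 10 genes, namely NES, SOX2, FABP7, HES1, HES6, VIM, CD44 and PMP22. Each sequence holds the 250 bases before the start site, 5′ to 3′ on the strand of the gene, and capitals mark matches to the motifs searched on either strand. For FABP7 (chr6:122779466-122779715, plus strand) the capitals mark a SOX motif, ACAAAG, starting 162 bases before the start site.
FABP7: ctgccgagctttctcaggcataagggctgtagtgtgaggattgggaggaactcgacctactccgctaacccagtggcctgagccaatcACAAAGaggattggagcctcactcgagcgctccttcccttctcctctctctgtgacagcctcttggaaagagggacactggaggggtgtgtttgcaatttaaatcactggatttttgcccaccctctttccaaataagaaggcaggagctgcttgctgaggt
For HES6 (chr2:238240039-238240288, minus strand) they mark the same SOX motif 126 bases before the start site.
HES6: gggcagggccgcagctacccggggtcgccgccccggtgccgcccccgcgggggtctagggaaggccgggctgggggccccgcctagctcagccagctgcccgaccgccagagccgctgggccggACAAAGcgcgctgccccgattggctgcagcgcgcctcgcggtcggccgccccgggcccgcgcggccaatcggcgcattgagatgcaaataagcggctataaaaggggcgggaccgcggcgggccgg
For SOX2 (chr3:181711675-181711924, plus strand) they mark the SOX motif 220 bases before the start site and, at the first base, a match on the other strand to the sterol element TCACNCCAC.
SOX2: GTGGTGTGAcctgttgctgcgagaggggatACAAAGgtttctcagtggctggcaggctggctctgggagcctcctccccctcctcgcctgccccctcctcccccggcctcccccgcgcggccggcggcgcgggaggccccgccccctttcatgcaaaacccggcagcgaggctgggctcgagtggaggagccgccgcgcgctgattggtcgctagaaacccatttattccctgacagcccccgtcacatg
For HES1 (chr3:194135898-194136147, plus strand) they mark the RBPJ motif TGGGAA, through which Notch acts, 84 and 70 bases before the start site, and the N box CACNAG, to which HES proteins bind, at 165, 132 and 58 bases.
HES1: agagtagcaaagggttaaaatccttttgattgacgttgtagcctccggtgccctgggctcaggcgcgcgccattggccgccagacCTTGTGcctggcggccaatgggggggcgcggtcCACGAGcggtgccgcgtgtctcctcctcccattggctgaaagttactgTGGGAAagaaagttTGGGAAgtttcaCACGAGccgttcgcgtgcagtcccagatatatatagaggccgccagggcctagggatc

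Among 34796 distinct RefSeq windows of 300 bases, which run 50 bases further than the printed stretch, a SOX motif (ACAAAG or ACAATG) was found in 24.5%, TGGGAA in 24.0%, CACNAG in 38.0% and TCACNCCAC in 1.12%. The E box CACGTG was found in 7.20%, the STAT motif TTCNNNGAA in 7.67% and the AP-1 motif TGANTCA in 7.73%, and none of these 3 was found in the windows of the 8 genes. A SOX motif lay in 5 of the 8 genes with a window, the printed FABP7, HES6 and SOX2 among them. This is a count of genes and not of windows, since PMP22 had several windows, not all with the motif. The NES match lay 36 bases past the start site. These matches describe letters and say nothing of what binds there.

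HES1 could not be compared by the fit, because its probe was well above background on 2, 3, 3 and 3 of 4 arrays in DMSO 24 h, DMSO 72 h, G-1 IC50 24 h and G-1 IC50 72 h. It was well above background on 0 of 4 arrays in G-1 1 µM at either duration. The session that held G-1 1 µM had fewer spots above background in general, and the part this played was not tested. In DMSO 72 h, with 3 of 4 arrays well above background, HES1 levels lay between -3.05 and -2.19. The lowest detected signals of the G-1 1 µM 72 h arrays, taken as limits, averaged -2.81, which lies within that range. No fold is therefore given at either duration.

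CD44 gave different answers by its 2 probes. The brightest, for transcript NM_000610, read 9.02, 8.93, 9.02 and 9.19 in DMSO 72 h and 8.78, 8.51, 8.61 and 8.72 in G-1 1 µM 72 h, without overlap. By this probe CD44 fell by -0.39 log2 (SE 0.09, limma adjusted p = 0.00138). The second probe, for transcript NM_001202557, read 0.74, 0.82, 0.91 and 1.09 in DMSO 72 h and 2.02, 1.50, 1.74 and 1.88 in G-1 1 µM 72 h. It rose by 0.90 log2 (SE 0.12, limma adjusted p = 1.89e-06), again without overlap. Within an array, the second probe moved against the first by 1.28 log2, with a two-sided exact permutation p of 0.0286 that became 0.102 after Benjamini-Hochberg adjustment over 32 such probe comparisons. With the mean of both probes in place of the brightest, the CD44 change turned to 0.26 log2 (limma adjusted p = 0.0272), so no direction of CD44 as a gene is given here.

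The PMP22 probes also differed in direction. Its brightest probe, for transcript NM_000304, read 8.56, 8.65, 8.60 and 8.80 in DMSO 72 h and 8.13, 7.91, 8.10 and 8.23 in G-1 1 µM 72 h, without overlap, and fell by -0.56 log2 (SE 0.09, limma adjusted p = 9.46e-06). At 24 h this probe differed by 0.10 log2, and the change at 72 h was lower than that by -0.67 (SE 0.12, limma adjusted p = 0.000312). The second probe, for transcript NM_001330143, read 0.30, 0.22, -0.26 and -0.77 in DMSO 24 h and 1.43, 1.42, 1.16 and 0.82 in G-1 1 µM 24 h. It was the probe that rose, by 1.33 log2 (SE 0.22, limma adjusted p = 0.000212) at 24 h and by 0.56 (SE 0.22, limma adjusted p = 0.0300) at 72 h. The 72 h call stayed past the threshold in 13 of 19 alternatives and was lost without replicate 4 of DMSO 72 h (limma adjusted p = 0.127) or without replicate 1, 3 or 4 of G-1 1 µM 72 h. Between the doses this probe was higher at 1 µM by 1.26 log2 at 24 h (SE 0.22, limma adjusted p = 0.000395). With the mean of both probes PMP22 changed by -0.0025 log2 at 72 h (limma adjusted p = 0.986), so its fall holds for the brightest probe and no direction of PMP22 as a gene is given either. Within an array the 2 PMP22 probes moved apart by 1.23 log2 at 24 h and 1.12 at 72 h, each with an exact permutation p of 0.0286 that became 0.102 after adjustment. The probes are assigned to transcripts by the array design, and whether isoforms of CD44 or PMP22 changed was not tested.

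**Figure D2:**
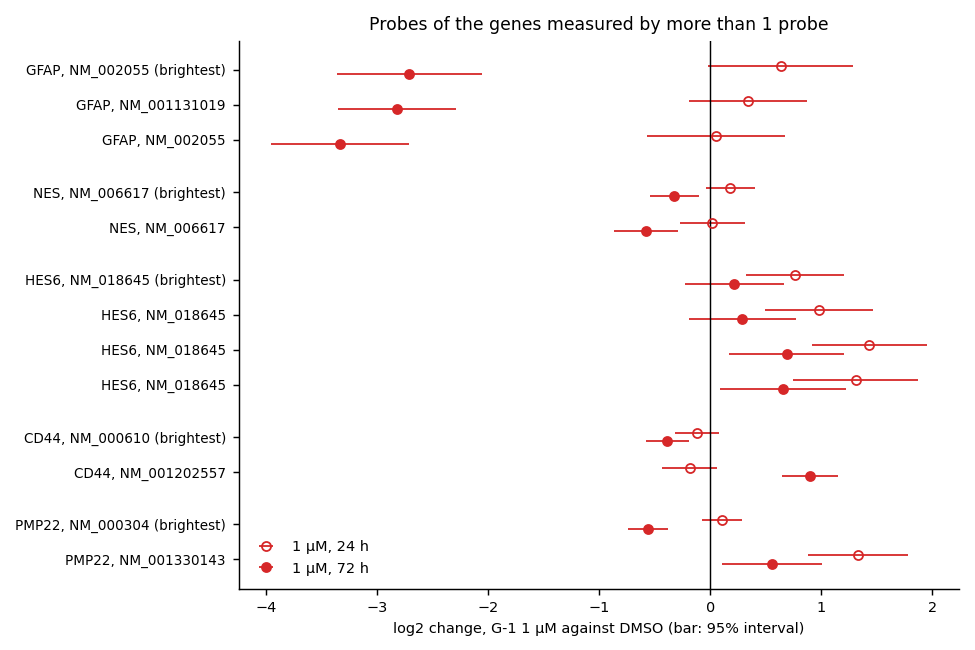
Log2 change between G-1 1 µM and DMSO for every probe of GFAP, NES, HES6, CD44 and PMP22, with 95% intervals from limma, at 24 h and 72 h. The 3 GFAP probes lie between -3.34 and -2.71 at 72 h. The probes of CD44 lie on opposite sides of 0 at 72 h, at -0.39 and 0.90, and so do those of PMP22, at -0.56 and 0.56.

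Counted over the 9 tested genes by their brightest probes, 0 passed limma's test for G-1 IC50 at 24 h, where 0.192% of all tested probes did, and 0 at 72 h, where 0.675% did. At an unadjusted limma p under 0.05 these counts were 2 and 2, where 4.46% and 8.98% of all tested probes passed. The t-test that the study's methods name also gave 2 and 2 unadjusted, and 0 and 0 after Benjamini-Hochberg adjustment. Groups did not overlap for 2 of the 9 at 24 h (FABP7 and HES6), against 2.61% of all tested probes, and for 1 (FABP7) at 72 h, against 6.92%. At 1 µM, 2 genes rose (FABP7 and HES6) and 1 fell (SOX2) at 24 h, where 29.6% of all tested probes passed. At 72 h, 1 gene rose (FABP7) and 6 fell (GFAP, NES, SOX2, VIM, CD44 and PMP22), where 64.3% of all tested probes passed, so that a passing test was the common state of a probe in that comparison. CD44 and PMP22 are counted here by their brightest probes only, since their second probes read higher than in DMSO. Groups did not overlap for 2 of the 9 at 24 h, against 28.5%, and for 6 at 72 h, against 56.0%.

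With a change above 2-fold asked for as well, FABP7 was the 1 gene called at 24 h, where 2.65% of all tested probes were, and GFAP the 1 gene called at 72 h, where 13.6% were. With G-1 IC50, 0 of the 9 were called, against 0.0435% at 24 h and 0.0958% at 72 h. The median log2 change of the 9 genes at 1 µM, by their brightest probes, was 0.10 at 24 h and -0.32 at 72 h, beside 0.0225 and -0.00229 over all tested probes. Between the doses, SOX2 differed at 24 h, where 26.4% of all tested probes passed. At 72 h, the brightest probes of GFAP, SOX2, VIM, CD44 and PMP22 were lower at 1 µM than at the IC50 dose, where 63.4% passed. The second CD44 probe was higher there by 0.78 log2 (limma adjusted p = 1.11e-05). With the mean of probes CD44 turned to 0.23 and PMP22 no longer passed (limma adjusted p = 0.419), and VIM no longer passed without replicate 4 of G-1 IC50 72 h (limma adjusted p = 0.0599). With time in DMSO alone 0 of the 9 passed limma's test, against 2.82% of all tested probes, and 1 did at an unadjusted p under 0.05, against 17.5%. The change with duration differed at 1 µM for GFAP, NES, SOX2 and PMP22, where 30.9% of all tested probes passed, and at the IC50 dose for 0 of the 9, where 0.00871% did and 2 of the 9 had an unadjusted limma p under 0.05, against 4.07%.

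**Figure D3:**
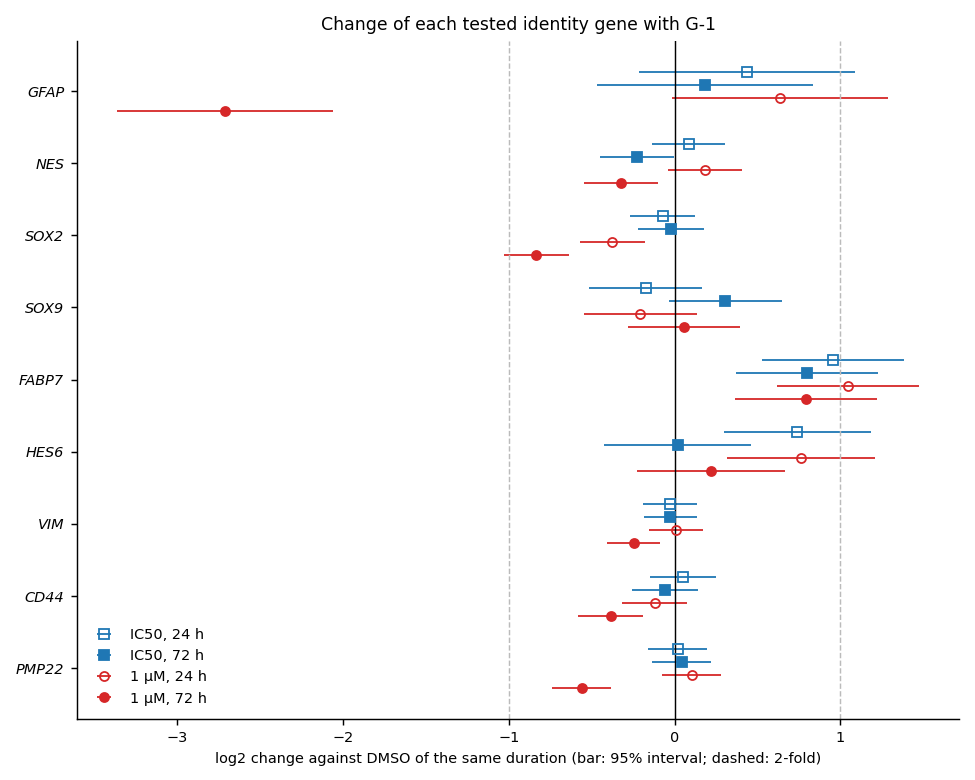
Log2 change against DMSO of the 9 tested genes with 95% intervals from limma, for each dose of G-1 and each duration. FABP7 lies near 1 for each dose at 24 h and near 0.80 at 72 h, whereas GFAP leaves 0 by its interval at 1 µM 72 h alone, at -2.71.

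Genes with group means most like those of the 3 members whose means spanned more than 1 log2 were then sought among all genes with a symbol and a tested probe, by the root mean square difference of the 6 centred group means. For GFAP these were NWD1, LOC102723944 and ADAMTS7P1, with differences of 0.27, 0.27 and 0.28 log2 against a GFAP span of 3.32. At 1 µM 72 h, NWD1 and LOC102723944 were not well above background on any array, and they were at least 2.38-fold and 1.27-fold lower than in DMSO. ADAMTS7P1 fell by -2.12 log2 there (limma adjusted p = 1.59e-10).

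For FABP7 the nearest genes were FADS2, a desaturase of long-chain fatty acids, INSIG1, which holds back sterol synthesis in the endoplasmic reticulum, and RGS20, a regulator of G protein signalling. Their differences from FABP7 were 0.13, 0.14 and 0.14 log2 against a span of 1.40. With G-1 IC50 at 24 h, FADS2 rose by 0.76 log2 (limma adjusted p = 0.000740), while INSIG1 differed by 0.85 (limma adjusted p = 0.0343) and RGS20 by 0.69 (limma adjusted p = 0.0498). The INSIG1 and RGS20 values stayed past the threshold in 12 and 9 of 21 alternatives, with adjusted p up to 0.728 and 0.763, and each was lost on leaving out any 1 of 6 of the 8 arrays compared, while FADS2 stayed past it in 19 of 21. At 1 µM 24 h the log2 changes were 0.94, 1.09 and 0.85. For HES6 they were ACSS2, which makes acetyl-CoA from acetate, FADS1, another fatty acid desaturase, and LSS, the lanosterol synthase of cholesterol synthesis, with differences of 0.11, 0.12 and 0.15 log2 against a span of 1.05. FADS1 rose by 0.91 log2 with G-1 IC50 at 24 h (limma adjusted p = 0.00122), while LSS differed by 0.83 (limma adjusted p = 0.0814) and ACSS2 by 0.54 (limma adjusted p = 0.588). At 1 µM 24 h ACSS2, FADS1 and LSS rose by 0.75, 1.06 and 1.12 log2. These genes were picked for likeness over 6 group means, so the values describe them and test nothing.

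**Figure D4:**
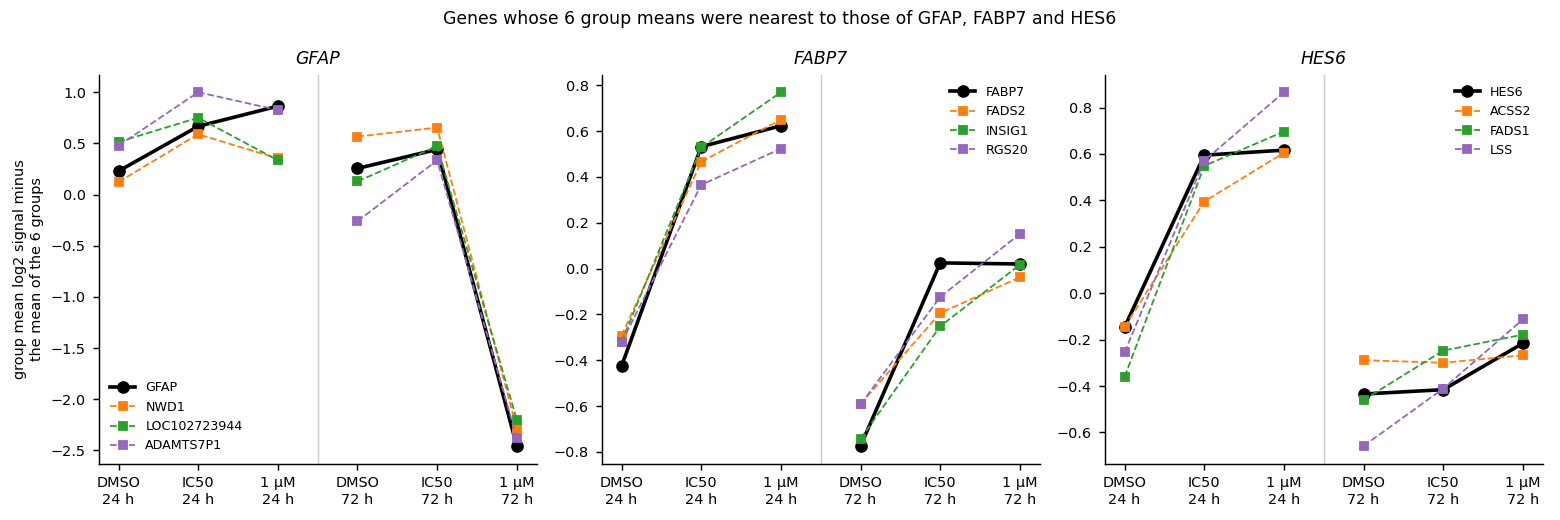
Group means of GFAP, FABP7 and HES6 (black) and of the 3 genes nearest to each (colours), as log2 signal minus the mean over the 6 groups, which stand on the horizontal axis with 24 h on the left. GFAP and its nearest genes are lowest at G-1 1 µM 72 h, where NWD1 and LOC102723944 were not well above background. FABP7, HES6 and their nearest genes are highest in the G-1 groups at 24 h.

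Other genes were read from 8 lists that hold none of the 10 genes. The lists cover astrocyte, stem cell and mesenchymal markers, the Notch pathway, intermediate filaments, and genes of myelin, neurons, microglia and endothelium. With G-1 IC50, 0 of the 102 tested genes of these lists passed limma's test at either duration, and 5 at 24 h and 16 at 72 h had an unadjusted p under 0.05, against 4.46% and 8.98% of all tested probes. At 1 µM, 32 of the 102 passed at 24 h and 69 at 72 h, against 29.6% and 64.3% of all tested probes, so that the genes of the lists passed about as often as any probe. All tested probes split into 32.6% higher and 31.8% lower at 72 h, and into 17.9% higher and 11.8% lower at 24 h. At 1 µM 72 h, 2 of 13 tested astrocyte markers rose and 9 fell, with a median log2 change of -0.61, or -0.59 with genes not above background at their limit. These 11 of 13 stand beside the 64.3% of all tested probes. SPARCL1, a secreted matrix protein of astrocytes, was well above background on 0 of 4 G-1 arrays and at least 4.64-fold lower than in DMSO 72 h. No p-value is given for this limit. S100B fell 3.90-fold (limma adjusted p = 5.39e-08), whereas GJA1, the gap junction protein of astrocytes, rose 3.37-fold (limma adjusted p = 2.19e-10). At 24 h, 2 of the 13 rose and 0 fell, where 29.6% of all tested probes passed.

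Of 19 tested markers of neural and glioma stem cells, 1 rose and 13 fell at 1 µM 72 h, with a median log2 change of -0.44, and 0 rose and 7 fell at 24 h, with a median of -0.22. Of all tested probes, 64.3% passed at 72 h and 29.6% at 24 h, in near equal parts up and down at 72 h. PDGFRA, the growth factor receptor of proneural glioma, fell 6.16-fold at 72 h (limma adjusted p = 1.70e-10) and by -0.57 log2 at 24 h (limma adjusted p = 0.0212). The 24 h call was lost without replicate 3 or 4 of DMSO 24 h or replicate 1 or 2 of G-1 1 µM 24 h (limma adjusted p between 0.0560 and 0.0773). It was also lost by the methods' t-test after Benjamini-Hochberg adjustment (adjusted p = 0.0910). SALL2, a zinc finger factor of glioma stem cells, changed by -1.53 log2 and ID2, an inhibitor of basic helix-loop-helix factors, by -1.36 at 72 h. PROM1, OLIG1, OLIG2, SOX11, L1CAM and DCX of the same list were not well above background on all 4 arrays of any group.

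Of 20 tested Notch pathway genes, 8 rose and 3 fell at 1 µM 72 h, with a median log2 change of 0.10, and 5 rose and 2 fell at 24 h. These 11 and 7 of 20 stand beside 64.3% and 29.6% of all tested probes. Those that rose most at 72 h were the ligand JAG1, by 4.24-fold (limma adjusted p = 5.20e-11), the feedback regulator NRARP, by 1.41 log2, and DLL3, a ligand that acts as an inhibitor within the cell, by 1.14 log2. NRARP read -2.80 in DMSO 72 h, where detected signals began between -3.54 and -3.11, and its change went down to 0.42 in an alternative. Lower at 72 h were JAG2, which read 1.09 in DMSO and 0.17 in G-1 1 µM, and NCSTN, which read 6.11 and 5.33. Among the targets of the pathway beside HES1, HES4 and HEY1, named after their values were seen, were well above background on all 24 arrays. HES4 read 5.73 in DMSO 72 h and 6.04 in G-1 1 µM 72 h (limma adjusted p = 0.00537), and HEY1 read 3.06 and 3.22 (limma adjusted p = 0.180). HES5, HEY2 and HEYL were not well above background on all 4 arrays of any group, nor were HES2, HES7, NOTCH3, DLL1, DLL4, MAML3 and MFNG.

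The mesenchymal glioma markers did not move one way. Of 18 tested, 5 rose and 4 fell at 1 µM 72 h, where 64.3% of all tested probes passed, with a median log2 change of 0.14. The matrix protein TNC rose by 1.42 log2 (limma adjusted p = 6.23e-07), while CHI3L1, a secreted chitinase-like protein, fell 4.09-fold (limma adjusted p = 3.86e-07). Of 13 tested intermediate filament genes and partners, 2 rose and 6 fell at 72 h, a share near that of all tested probes, with a median of -0.21. SYNM, a filament protein that pairs with vimentin and GFAP, changed by -1.34 log2 and BFSP1 by -1.13, and NEFM, a neurofilament subunit read above background on 3 of 4 DMSO arrays, by 1.17.

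**Figure D5:**
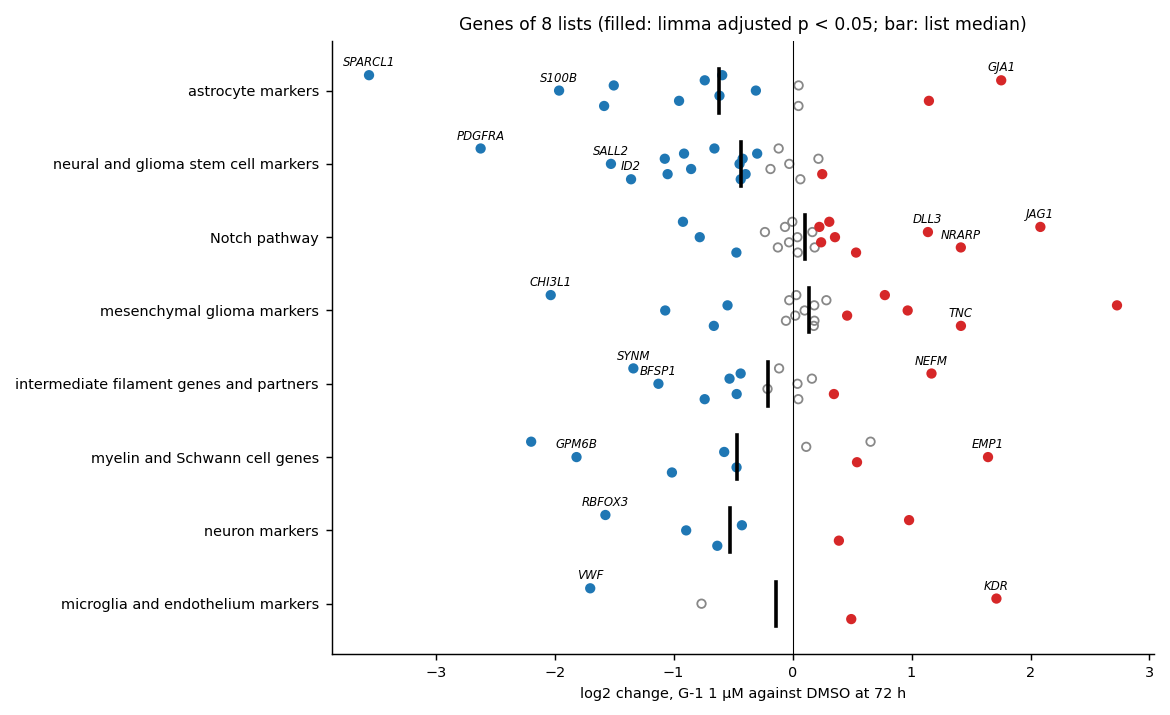
Log2 change between G-1 1 µM and DMSO at 72 h of the tested genes in each of 8 lists, 1 point per gene by its brightest probe, with the median of each list. Most astrocyte markers and stem cell markers lie below 0, with medians of -0.61 and -0.44, and Notch pathway genes lie on either side, with a median of 0.10. Genes not above background at 1 µM 72 h, SPARCL1 among them, stand at their fitted values.

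Lists of other cell types were read beside these changes. Of 9 tested myelin and Schwann cell genes, 2 rose and 5 fell at 1 µM 72 h, where 64.3% of all tested probes passed, with a median of -0.47, or -0.22 with genes not above background at their limit. EMP1, a relative of PMP22, rose by 1.64 log2, and GPM6B, a membrane proteolipid, changed by -1.82. Of 6 tested neuron markers, 2 rose and 4 fell at 72 h, and 0 rose and 3 fell at 24 h, where 64.3% and 29.6% of all tested probes passed. RBFOX3, the neuronal splicing factor NeuN, changed by -1.57 log2 at 72 h and -1.24 at 24 h. Of 12 microglia and endothelium markers, 11 had a probe and 4 were tested, and PTPRC, AIF1, CX3CR1, P2RY12, ITGAM, PECAM1 and CLDN5 were well above background on 0 of the 24 arrays. The log2 of the summed signal of the 11 genes was between 1.40 and 1.58 in DMSO 72 h and between 2.24 and 2.35 in G-1 1 µM 72 h. KDR was the largest part of this sum, which adds signals of different probes. In DMSO 72 h and G-1 1 µM 72 h, KDR read 0.08 and 1.79 and CSF1R -0.92 and -0.42. VWF read -0.42 and -2.12 and CDH5 -2.36 and -3.13. KDR, the endothelial receptor of VEGF, rose by 1.71 log2, while VWF, which endothelial cells secrete, changed by -1.70. All RNA came from cultures of the U251 line, so these lists describe transcripts of U251 cells and not a mixture of cell types. The part that cell states played in the changes of the 10 genes was not tested.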

How the data were processed

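Total RNA of U251 cells was labelled with Cy3 and hybridized to 24 1-colour Agilent arrays. For each array the authors deposited the spot intensity from Feature Extraction, with the background subtracted and no scaling between arrays. A second file holds log2 values by probe, also deposited by the authors, which differed from the values computed here by a median of 0.00142 and at most 0.00583 once centred on each probe, over 58118 probes. Feature Extraction is version 10.7.3.1 in the labels and 12.1.1.1 in the file headers.

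After spots marked as outliers were left out, log2 intensities of a probe were averaged and set relative to their array's 75th percentile. A probe was tested if some group had it well above background on each of its 4 arrays, which 22970 probes met. One model with 6 group means was fitted to 24 arrays with limma 3.58.1 in R 4.3.3, after it was tested on simulated data, with Benjamini-Hochberg adjustment over all tested probes. Counts of genes called needed an adjusted p below 0.05 and more than a 2-fold change of the brightest probe. Where the call of a single gene or probe is said to be lost or kept, the adjusted p alone is meant. Durations were taken from the sample titles, since another label contradicts them for G-1 IC50 24 h and for 1 µM 72 h. The labels and the study's methods also give different DMSO concentrations. Precision is limited by 4 arrays per group.

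The 10 genes and the 8 lists were chosen with earlier results of these data known. Named from each list were the 3 genes with the largest change among those called for G-1 1 µM at 72 h, or called with G-1 IC50, and for members whose group means spanned more than 1 log2 the 3 nearest genes. HES5, HEY2 and HEYL and the other genes below background are named as list members without values, and PDGFRA also at 24 h. HES4, HEY1, JAG2, NCSTN, CSF1R and CDH5 were named after their values were seen. Some genes that this rule names are not reported here. Same-numbered arrays of DMSO 24 h and G-1 1 µM 24 h deviated together over all tested probes, with correlations between 0.166 and 0.281, and paired values with a replicate block are given for that comparison where they changed a call. Genes were named through RefSeq tables, which matched 35032 of 58201 probes. The alternatives were other normalizations (quantile, 50th percentile, normexp on the median spot signal), filters, probe rules, tests and blocks, and each array left out in turn.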

Additional observations from a re-analysis of the deposited data

Results flagged for a closer look

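In 2 of 60 groups of 4 arrays, 1 array stood apart from the other 3 by a Dixon test, which chance does in about 1 of 20 groups. FABP7 in G-1 1 µM 72 h read 5.70 on 1 array and between 6.10 and 6.13 on the other 3, a gap of 0.932 of the group's range. CD44 in DMSO 24 h read 8.75 on 1 array and between 8.996 and 9.02 on the other 3, a gap of 0.916 of the range.

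The change against DMSO at 1 µM differed between 72 h and 24 h for 4 of the 9 tested genes by their brightest probes, where 30.9% of all tested probes passed. The difference was -3.35 log2 for GFAP (limma adjusted p = 1.18e-05), -0.50 for NES (limma adjusted p = 0.0151), -0.46 for SOX2 (limma adjusted p = 0.0128) and -0.67 for PMP22 (limma adjusted p = 0.000312). The NES difference no longer passed with another background correction (limma adjusted p = 0.146) or without the filter on dim probes (limma adjusted p = 0.0621), nor did the SOX2 difference without that filter (limma adjusted p = 0.0584). By these probes GFAP, NES and PMP22 at 1 µM 24 h lay above DMSO without passing the test, although GFAP passed with the replicate block (limma adjusted p = 0.0114), and all 3 fell at 72 h, whereas SOX2 fell at either duration. At 1 µM 24 h the brightest GFAP probe passed in 2 of 20 alternatives, and the other GFAP probes in 1 and 0 of 19. The second PMP22 probe rose at 24 h by 1.33 log2 (limma adjusted p = 0.000212) and was 0.56 above DMSO at 72 h, and its difference between durations, -0.78, did not pass (limma adjusted p = 0.0592).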

How the results depend on the processing

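The fall of GFAP at 1 µM 72 h, of SOX2 at either duration and the rise of FABP7 at 72 h kept their direction and stayed past the adjusted threshold under every alternative run on them. CD44 turned direction with the mean of its probes in place of the brightest, to 0.26 against DMSO 72 h, 0.23 against G-1 IC50 72 h and 0.41 for the difference between durations, because its 2 probes moved oppositely, and PMP22 at 72 h went to -0.0025. Genes called at 1 µM 24 h numbered 1, but 0 with quantile normalization, the 50th percentile, normexp or the adjusted t-test, and 2 with the mean of probes. Leaving out 1 array gave 0 to 1, with 0 without replicate 1 of DMSO 24 h or replicate 3 or 4 of G-1 1 µM 24 h, since the FABP7 change of 1.05 lies close to 2-fold. With G-1 IC50 24 h leaving out 1 array gave 0 to 1 called, FABP7 being called without replicate 1. At either duration of G-1 IC50, FABP7 had an adjusted p under 0.05 in only 6 of 21 alternatives. With no fold threshold 3 genes were called at 1 µM 24 h, 7 at 72 h, 1 and 5 between the doses at 24 h and 72 h, and 4 for the difference between durations. Without the filter on dim probes 2 were called at 1 µM 72 h, 1 and 2 between the doses at 24 h and 72 h, HES1 being tested then, and 2 genes passed for the difference between durations. Genes past the adjusted p with G-1 IC50 24 h were 1 with quantile normalization, the filter on all 24 arrays or an intensity trend, 0 to 1 with 1 array left out, and 2 with the unadjusted t-test. At 72 h they were 1 with quantile normalization, normexp, an intensity trend or only the arrays of the comparison, and 2 with the unadjusted t-test. With the replicate block they were 2 (FABP7 and HES6) at 24 h and 1 (FABP7) at 72 h, also with the block within each duration, which was chosen after seeing the data, while same-numbered arrays correlated at -0.113 or above in that comparison at 24 h and at 0.0528 or above at 72 h. At 1 µM 24 h 1 (SOX2) passed by the adjusted t-test, with FABP7 at 0.0505 and HES6 at 0.101. Between the doses at 24 h 2 passed with quantile normalization, the 50th percentile, normexp, no filter or the mean of probes, and 0 to 1 with 1 array left out. For signal near background, which limits HES1, no level can be given.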
